A study of Homo sapiens with 6 samples.

Results

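The measurements here concern 8 genes that encode plasma membrane transporters of amino acids, SLC7A5, SLC3A2, SLC7A1, SLC1A5, SLC6A9, SLC38A1, SLC38A2 and SLC1A4, which were taken by symbol from a table of 24154 genes. They were measured by poly(A) RNA-seq in HCT116, per the labels (a line from a human colorectal carcinoma), at 48 h after a negative control siRNA (NC, 3 libraries) or an siRNA against CPT2 (siCPT2, 3 libraries), with the replicates of each group numbered 1, 2 and 3. CPT2 encodes a mitochondrial enzyme of the carnitine shuttle, and the comparison asks how expression differs when it is targeted. All libraries of both groups come from the same line and time, both groups received an siRNA, and the sequence of neither siRNA is given in the sources used here. Whether the 3 libraries of a group were separate cultures is not stated, so the spread that p-values rest on is that of these libraries and may be technical.

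Amino acid transporters of the solute carrier (SLC) families move amino acids across the plasma membrane by exchange or by coupling to sodium. SLC7A5 (LAT1) carries leucine and other large neutral amino acids and works as a heterodimer with the glycoprotein SLC3A2 (CD98 heavy chain), commonly exchanging intracellular glutamine for extracellular leucine. SLC1A5 (ASCT2) and SLC1A4 (ASCT1) exchange small neutral amino acids, glutamine among them for SLC1A5. SLC38A1 and SLC38A2 (SNAT1 and SNAT2) take up glutamine and alanine with sodium, SLC7A1 (CAT1) carries arginine and lysine, and SLC6A9 (GlyT1) carries glycine. Several of these genes are textbook targets of ATF4, the transcription factor that cells induce when amino acids are short.

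Libraries held 28353790 to 29449380 counts. CPT2, the targeted gene, was counted 709, 881 and 911 times in NC 1, 2 and 3 and 492, 597 and 553 times in siCPT2 1, 2 and 3, a log2 fold change of -0.44 (SE 0.17, edgeR adjusted p = 0.338). siCPT2 replicate 1 stood apart on the first principal component (53.2% of the variance), with a score of 76.6 against -44.6 to 16.0 in the other 5 libraries. Of 8 epithelial markers, KRT8 and KRT18 were abundant in NC (995.3 ± 53.1 and 690.0 ± 77.2 CPM, counts scaled to library sizes adjusted by TMM factors, mean ± SD, n = 3). EPCAM (2.93 CPM), CDH1 (2.41 CPM) and KRT19 (0.302 CPM) were low, VIL1 was near 0 (0.0106 CPM) and CDX2 had no count in any library. CLDN4, the remaining marker, had 20.8 CPM. The markers of this list were thus split between abundant KRT8 and KRT18 and low or absent EPCAM, CDH1, KRT19, VIL1 and CDX2. The name HCT116 rests on the labels alone, these markers do not bear it out, and the identity of the line was not tested further.

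Each sequence shown here is the stretch of 250 bases directly before an annotated start of transcription, 5′ to 3′ in the direction of the gene, from RefSeq on GRCh38.p14. The promoters of SLC38A2, SLC38A1 and SLC7A1 are shown because the CPM of these 3 genes was lower in every siCPT2 library than in any control. Those of SLC7A5 and SLC1A5 are shown because they hold a match to a motif searched. All 8 genes had an entry, with 14 start sites in all. SLC38A1 has 2 start sites and SLC1A5 has 3, numbered from the 5′ end of the gene.
SLC38A2 (chr12:46372774-46373023, minus strand): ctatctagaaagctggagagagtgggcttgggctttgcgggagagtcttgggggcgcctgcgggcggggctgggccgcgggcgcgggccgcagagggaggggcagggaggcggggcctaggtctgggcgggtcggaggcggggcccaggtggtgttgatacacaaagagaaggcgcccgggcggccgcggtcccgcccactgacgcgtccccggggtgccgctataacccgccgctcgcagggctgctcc
SLC38A1, start site 1 (chr12:46267988-46268237, minus strand): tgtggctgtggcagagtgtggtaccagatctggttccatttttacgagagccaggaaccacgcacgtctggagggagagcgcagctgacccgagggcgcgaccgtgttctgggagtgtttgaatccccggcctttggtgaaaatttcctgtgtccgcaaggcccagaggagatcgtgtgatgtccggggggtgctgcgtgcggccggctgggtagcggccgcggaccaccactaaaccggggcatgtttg
SLC7A1 (chr13:29595689-29595938, minus strand): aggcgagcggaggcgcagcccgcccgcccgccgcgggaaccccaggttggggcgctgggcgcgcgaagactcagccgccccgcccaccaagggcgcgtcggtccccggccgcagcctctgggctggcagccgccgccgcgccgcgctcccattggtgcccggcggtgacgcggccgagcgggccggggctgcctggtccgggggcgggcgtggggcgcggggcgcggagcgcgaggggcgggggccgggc
SLC7A5 (chr16:87869508-87869757, minus strand): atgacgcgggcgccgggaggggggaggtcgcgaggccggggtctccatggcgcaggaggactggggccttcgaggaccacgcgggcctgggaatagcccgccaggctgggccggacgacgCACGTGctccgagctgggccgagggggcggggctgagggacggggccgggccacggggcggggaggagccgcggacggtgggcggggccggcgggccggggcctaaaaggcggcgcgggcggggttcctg
SLC1A5, start site 2 (chr19:46787294-46787543, minus strand): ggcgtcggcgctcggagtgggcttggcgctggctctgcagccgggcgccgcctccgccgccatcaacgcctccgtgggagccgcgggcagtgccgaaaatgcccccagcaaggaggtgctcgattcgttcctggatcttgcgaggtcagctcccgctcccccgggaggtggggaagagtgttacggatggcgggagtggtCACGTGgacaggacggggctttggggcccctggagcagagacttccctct
SLC1A5, start site 3 (chr19:46784815-46785064, minus strand): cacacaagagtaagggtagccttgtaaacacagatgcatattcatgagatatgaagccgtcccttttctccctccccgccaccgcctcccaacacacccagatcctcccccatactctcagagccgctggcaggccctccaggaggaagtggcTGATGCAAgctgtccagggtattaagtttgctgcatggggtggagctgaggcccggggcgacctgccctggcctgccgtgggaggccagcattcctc
Capitals mark matches on either strand to 2 motifs, the core of the C/EBP-ATF response element (TGATGNAA), the kind of site through which ATF4 acts, and the E-box (CACGTG), bound by MYC among others. The response element was found at 1 of the 14 start sites, start site 3 of SLC1A5, and 3.15% of 34943 promoter stretches of the same length hold a match. The E-box was found at the SLC7A5 start and at start site 2 of SLC1A5, where 6.32% of all such stretches hold one, and the motifs did not overlap. The promoters of SLC38A2, SLC38A1 and SLC7A1 hold neither set of letters in this window. The windows shown for SLC38A1 and SLC1A5 lie inside the gene's GENCODE coordinates, downstream of its outermost start, and that of SLC38A2 overlaps its gene. The rest of each gene and more distant sequence were not searched.

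None of the 8 transporter genes passed the test over all 15302 genes (edgeR quasi-likelihood test, Benjamini-Hochberg adjusted p under 0.05), where 0.0131% of all genes did. Their log2 fold changes, siCPT2 over NC, ran from -0.62 (SLC38A2) to 0.37 (SLC6A9) with a median of -0.03, against 0.01 over all tested genes, and 4 were above 0 and 4 below. The members' median was -0.17 with the GC and length offsets described further on, where that of all genes was -0.004. It was -0.17 on library size alone, where that of all genes was -0.13. In FPKM, which carries no TMM factor either, it was -0.13, and no median of all genes was taken on that scale. At an unadjusted p under 0.05 there were 2 members, against 14.5% of all genes. Both, SLC38A1 and SLC38A2, were lower, and 5.29% of all genes were past that threshold on the lower side and 9.18% on the higher. In 3 members, SLC38A1, SLC38A2 and SLC7A1, the CPM of the groups did not overlap and siCPT2 was lower, as in 12.2% of all genes. No member had its groups separated with siCPT2 higher, which 12.2% of all genes did. DESeq2 called no member and 0.122% of all genes, and by its unadjusted p 2 members were under 0.05, against 16.9% of all genes. By the authors' own rule, in the authors' deposited table (unadjusted p of 0.01 and a fold of 1.5), all 8 members stood as normal, and 4.15% of the genes with a call there stood as up or down. CPT2, the targeted gene, also stood as normal there, with a log2 fold change of -0.44 (authors' DESeq2, unadjusted p = 0.0118).

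The authors' FPKM, which divides counts by gene length and library size, allows levels to be compared between genes. In NC the order was SLC7A5 (501.2 ± 15.0 FPKM, SD, n = 3 here and for the following values), SLC3A2 (327.0 ± 27.8), SLC38A2 (89.2 ± 15.9), SLC1A5 (63.2 ± 3.76), SLC38A1 (51.7 ± 8.23), SLC6A9 (23.8 ± 1.71), SLC7A1 (23.0 ± 2.58) and SLC1A4 (3.15 ± 0.253). SLC7A5 and SLC3A2 thus stood far above the rest, and their FPKM made up 36.8% and 24.0% of the sum over 45 amino acid transporter genes. By mean FPKM in NC, SLC7A5 ranked 92nd and SLC3A2 141st of all 24154 genes, and SLC1A4 9492nd. Neighbours in the order whose NC libraries overlapped were SLC1A5 with SLC38A1 and SLC6A9 with SLC7A1. In siCPT2 the same genes led, with SLC7A5 at 471.1 ± 12.6 and SLC3A2 at 328.9 ± 57.6 FPKM. SLC1A5 (64.2 ± 13.1 FPKM) there had a higher mean than SLC38A2 (53.2 ± 22.0 FPKM), with libraries that overlapped. The plot of FPKM by library shows this order and the spread of each gene.

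**Figure D1:**
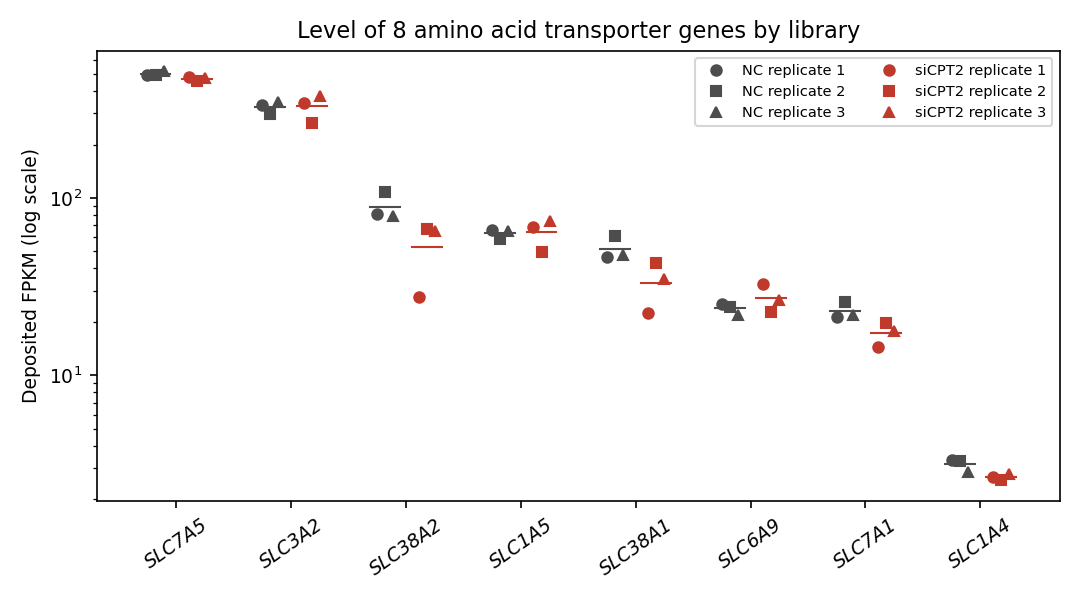
Deposited FPKM (log axis) of the 8 transporter genes in NC replicates 1 to 3 (grey) and siCPT2 replicates 1 to 3 (red), with horizontal lines at the group means and genes ordered by the NC mean. SLC7A5 and SLC3A2 lie near 501.2 and 327.0 FPKM in NC, and SLC38A2 and SLC38A1 have their lowest value in siCPT2 replicate 1 (27.8 and 22.3 FPKM).

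Among the sodium-coupled glutamine carriers, SLC38A2 (ENSG00000134294, 16 exons, minus strand of chromosome 12, 46358189 to 46372867 on GRCh38) was the member with the lowest fold change. SLC38A2, whose product cells are known to raise on amino acid shortage, had 399.3, 507.3 and 378.5 CPM in NC 1, 2 and 3, against 165.0, 336.7 and 333.2 CPM in siCPT2 1, 2 and 3. All 3 siCPT2 libraries were below all controls, and siCPT2 replicate 1 was far below the other 2. Its log2 fold change was thus -0.62 (SE 0.26; 95% interval -1.22 to -0.025, edgeR adjusted p = 0.338), and the exact 2-sided permutation p of the CPM was 0.1, the smallest that 3 against 3 libraries allow. Without siCPT2 replicate 1 the log2 fold change was -0.36 (adjusted p = 0.492). In bulk RNA, fewer cells that express a gene and less of its RNA per cell cannot be told apart.

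SLC38A1 (ENSG00000111371, 17 exons, minus strand of chromosome 12, 46183063 to 46270017), its neighbour and closest relative here, had 385.1, 490.1 and 380.8 CPM in NC 1, 2 and 3, against 217.8, 364.5 and 294.2 CPM in siCPT2 1, 2 and 3. Again no siCPT2 library reached the controls, although siCPT2 replicate 2 lay close below NC replicate 3. For SLC38A1 the log2 fold change came to -0.52 (SE 0.20; 95% interval -0.98 to -0.062, edgeR adjusted p = 0.338; exact permutation p = 0.1). With GC and length offsets the log2 fold change was -0.11 for SLC38A1 and -0.21 for SLC38A2. In the authors' deposited table the log2 fold change was -0.52 for SLC38A1 (unadjusted p = 0.0215) and -0.63 for SLC38A2 (unadjusted p = 0.0257). The log2 ratio of SLC38A1 to SLC38A2 in FPKM, which no library scaling can change, was -0.79 ± 0.042 in NC and -0.62 ± 0.29 in siCPT2 (SD, n = 3 each).

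SLC7A1 (ENSG00000139514, 13 exons, minus strand of chromosome 13, 29509410 to 29595688), the carrier of arginine and lysine, had 161.5, 190.5 and 160.7 CPM in NC 1, 2 and 3, against 128.8, 152.6 and 136.5 CPM in siCPT2 1, 2 and 3. The groups did not overlap, and siCPT2 replicate 1 was the lowest by a small distance only. This gave a log2 fold change of -0.29 (SE 0.14; 95% interval -0.62 to 0.025, edgeR adjusted p = 0.338; exact permutation p = 0.1). Without siCPT2 replicate 1 it was -0.25 (adjusted p = 0.508).

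The heterodimer genes differed little between the groups as counted. SLC7A5 (ENSG00000103257, 10 exons, minus strand of chromosome 16, 87830023 to 87869488) had 2311.7, 2234.1 and 2355.8 CPM in NC 1, 2 and 3, against 2646.7, 2195.3 and 2267.4 CPM in siCPT2 1, 2 and 3. Those values overlapped, with siCPT2 replicate 1 highest and siCPT2 replicate 2 lowest of all 6. SLC7A5 thus had a log2 fold change of 0.04 (SE 0.13; 95% interval -0.26 to 0.35, edgeR adjusted p = 0.863), an interval that leaves out a fold of 1.5 in either direction, which is 0.58 on the log2 scale. Without siCPT2 replicate 1 it was -0.054, and on library size alone -0.10, where the median of all genes was -0.13. In FPKM, which carries no TMM factor, SLC7A5 had 492.0, 493.1 and 518.5 in NC 1, 2 and 3 and 480.7, 456.8 and 475.7 in siCPT2 1, 2 and 3, so that on that scale every siCPT2 library was lower. In FPKM the groups were separated with siCPT2 lower in 5 of the 8 members, SLC7A5, SLC7A1, SLC38A1, SLC38A2 and SLC1A4, as in 17.1% of all tested genes, and in none with siCPT2 higher, as in 7.19%.

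SLC3A2 (ENSG00000168003, 12 exons, plus strand of chromosome 11, 62856102 to 62888875) had 733.4, 620.0 and 713.8 CPM in NC 1, 2 and 3, against 855.4, 587.9 and 834.9 CPM in siCPT2 1, 2 and 3. siCPT2 replicates 1 and 3 were above all controls and siCPT2 replicate 2 below them. For SLC3A2 this is a log2 fold change of 0.14 (SE 0.17; 95% interval -0.24 to 0.53, edgeR adjusted p = 0.632), and on library size alone it was -0.004. Without siCPT2 replicates 1 and 2 in turn it was 0.036 and 0.29. The ratio of SLC7A5 to SLC3A2 in FPKM was 1.47, 1.67 and 1.48 in NC 1, 2 and 3, against 1.39, 1.72 and 1.26 in siCPT2 1, 2 and 3. This ratio of the partners was 1.54 ± 0.111 and 1.46 ± 0.238 (SD, n = 3 each; exact permutation p = 0.6, and 0.6 adjusted over 6 ratios), so the groups were not separated.

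The exchangers of the SLC1 family overlapped between the groups. SLC1A5 (ENSG00000105281, 8 exons, minus strand of chromosome 19, 46774883 to 46788594), the glutamine exchanger, had 191.2, 167.7 and 183.8 CPM in NC 1, 2 and 3, against 233.9, 150.6 and 219.5 CPM in siCPT2 1, 2 and 3. Its pattern matched that of SLC3A2, with siCPT2 replicates 1 and 3 above the controls and replicate 2 below, which came to 0.15 on the log2 scale (SE 0.18; 95% interval -0.26 to 0.56, edgeR adjusted p = 0.62). On library size alone SLC1A5 had 0.008, and without siCPT2 replicates 1 and 2 in turn it had 0.023 and 0.32. SLC1A4 (ENSG00000115902, 8 exons, plus strand of chromosome 2, 64988477 to 65023865), the least abundant member, had 468, 457 and 393 counts in NC 1, 2 and 3, against 366, 347 and 390 in siCPT2 1, 2 and 3. In CPM these were 14.3 ± 1.59 and 13.4 ± 1.04 (SD, n = 3 each), with overlap, and SLC1A4 had a log2 fold change of -0.095 (SE 0.18; edgeR, adjusted p = 0.766), and -0.18 to -0.029 with 1 library left out.

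SLC6A9 (ENSG00000196517, 14 exons, minus strand of chromosome 1, 43991500 to 44031467), the glycine transporter, had 77.9, 71.5 and 66.1 CPM in NC 1, 2 and 3, against 120.7, 71.7 and 85.0 CPM in siCPT2 1, 2 and 3. siCPT2 replicate 1 was far above all other libraries, and siCPT2 replicate 2 lay among the controls. The log2 fold change of 0.37 (SE 0.20, 95% interval -0.095 to 0.82, edgeR adjusted p = 0.36) was 0.12 without siCPT2 replicate 1. Exons of SLC6A9 share 404 bases with CCDC24 on the opposite strand, so the reads of this stretch cannot be told apart without strand. CCDC24 had 185 to 381 counts per library and a log2 fold change of 0.28 (SE 0.30). Antisense genes that are not rows of the table share 271 exon bases with SLC7A5 and 780 with SLC1A5.

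The uptake routes for glutamine were set against each other within each library, where library scaling cancels but a trend on GC content does not. The log2 ratio of SLC38A2 to SLC1A5 in FPKM was 0.29, 0.87 and 0.29 in NC 1, 2 and 3, against -1.30, 0.43 and -0.20 in siCPT2 1, 2 and 3. siCPT2 replicate 2 lay within the controls and the other 2 siCPT2 libraries were below them, a difference in means of -0.84 (exact 2-sided permutation p = 0.3, and 0.45 adjusted over the 6 ratios compared). For SLC38A1 to SLC1A5 the difference was -0.67 (p = 0.3, exact permutation, adjusted 0.45). The transcripts of SLC38A2 and SLC38A1 are AT-rich (38.1% and 41.3% GC) and that of SLC1A5 is GC-rich (61.3%). With the GC and length offsets described further on, the log2 fold changes were -0.21 for SLC38A2, -0.11 for SLC38A1 and -0.20 for SLC1A5. The remaining ratios, SLC7A1 to SLC7A5 (difference -0.33) and SLC1A4 to SLC1A5 (-0.24), had exact permutation p-values of 0.2 and 0.3, each 0.45 after adjustment. Summed over the 8 members, the level was 4274.6 ± 22.0 CPM in NC and 4146.2 ± 257.7 CPM in siCPT2 (SD, n = 3 each), with 3871.6 CPM in siCPT2 replicate 2 as the lowest library. These sums overlapped, but without TMM factors the members' share of all counts did not. It was 0.439%, 0.455% and 0.453% in NC 1, 2 and 3 and 0.384%, 0.383% and 0.417% in siCPT2 1, 2 and 3. On that scale, library size alone, all genes were shifted too, with a median log2 fold change of -0.13, against -0.17 for the members. Their summed FPKM was 1082.3 ± 20.5 and 997.8 ± 74.1 (SD, n = 3 each; exact 2-sided permutation p = 0.3).

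**Figure D2:**
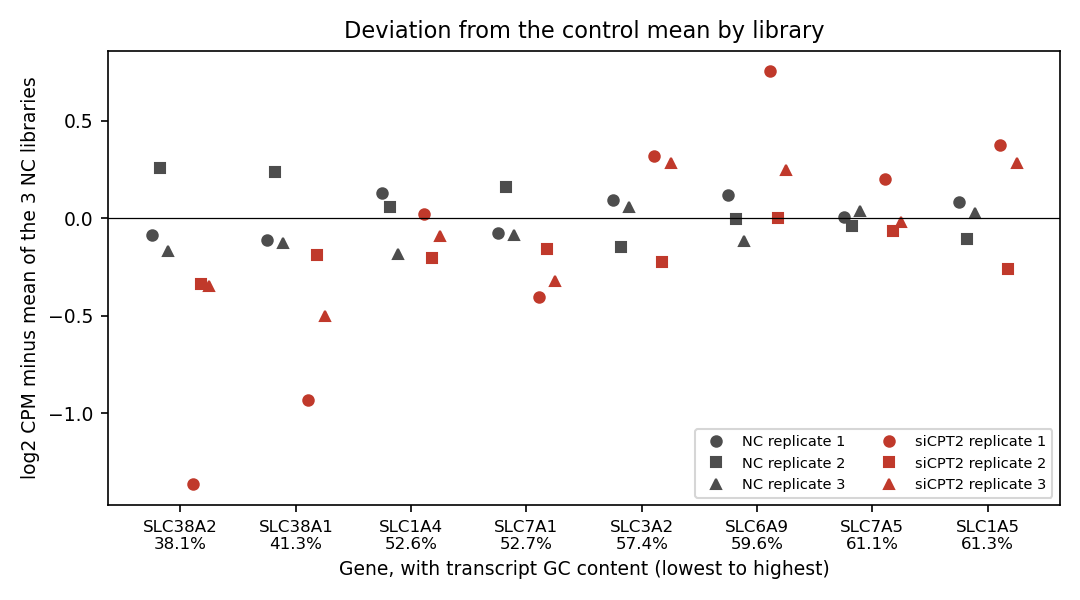
Log2 CPM (prior count 2) of each member minus the mean of the 3 NC libraries, by library (grey NC, red siCPT2), with genes ordered by the GC content of the transcript. siCPT2 replicate 1 is lowest for SLC38A2 (-1.36) and SLC38A1 (-0.93) and highest for SLC6A9 (0.75), and siCPT2 replicate 2 lies at or below 0.002 for every member.

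The sign of the members' fold changes split by the GC content of their transcripts, but the size did not follow it throughout. SLC38A2 (38.1%) and SLC38A1 (41.3%) were the most AT-rich members, SLC1A4 (52.6%) and SLC7A1 (52.7%) lay between, and SLC3A2 (57.4%), SLC6A9 (59.6%), SLC7A5 (61.1%) and SLC1A5 (61.3%) were GC-rich. All 4 GC-rich members had fold changes above 0 and all 4 others below. SLC7A1 (-0.29) and SLC1A4 (-0.095) differed at like GC content, as did SLC7A5 (0.04) and SLC6A9 (0.37). Across all tested genes the median log2 fold change ran from -0.41 in the decile of lowest GC content to 0.50 in the decile of highest.

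Against the median of their own decile of GC content, 6 of the 8 members stood lower in each siCPT2 library (all but SLC3A2 and SLC6A9), as did 24.3% of all tested genes with a GC value, a count added after the values were seen. SLC7A5 was at 0.20, -0.067 and -0.021 against the NC mean in siCPT2 1, 2 and 3, where the median of its decile (59.1% to 62.5% GC) was 0.59, 0.041 and 0.30. SLC1A5, in the same decile, was at 0.37, -0.26 and 0.28. SLC7A1 was at -0.40, -0.16 and -0.32, where the median of its decile (52.7% to 56.0%) was 0.29, -0.006 and 0.15. SLC7A1 lies at the lower edge of its decile, and the median of the decile before it was 0.024, -0.010 and 0.025, also above SLC7A1 in each library. SLC38A2 was at -1.36, -0.34 and -0.35 and the median of the lowest decile at -1.03, -0.041 and -0.29. SLC38A1 was at -0.93, -0.19 and -0.50 and the median of its decile (38.8% to 41.3%) at -0.84, -0.042 and -0.26. SLC6A9 was at 0.75, 0.002 and 0.25, which is above its decile's median in siCPT2 replicate 1 only. SLC3A2 was at 0.32, -0.23 and 0.28 where its decile had 0.46, 0.029 and 0.22, so that siCPT2 replicate 3 lay above it. SLC1A4 was at 0.020, -0.20 and -0.092, where its decile, the one before that of SLC7A1, had 0.024, -0.010 and 0.025.

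With offsets that remove the trend of each library on GC content and transcript length, the members drew together. Their log2 fold changes then ran from -0.21 (SLC38A2, SE 0.11) to 0.07 (SLC6A9, SE 0.11), with an SD between members of 0.096 against 0.35 as counted, and 7 of the 8 were below 0. The offsets were fitted to these same libraries, so part of the narrower spread between members of unlike GC content follows from the fit. SLC7A5 and SLC1A5 had -0.20 each (SE 0.11 and 0.10), SLC7A1 -0.19 (SE 0.10), SLC3A2 -0.14 (SE 0.10), SLC38A1 -0.11 (SE 0.091) and SLC1A4 -0.058 (SE 0.14). None passed (edgeR, adjusted p 0.457 to 0.88), where 0.0227% of 13207 genes did, and no member had an unadjusted p under 0.05, against 12.0% of those genes. SLC7A5, SLC3A2 and SLC1A5 thus had the opposite sign with the offsets, and the fold changes of the other 5 members were nearer to 0 by over 1.5 times.

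**Figure D3:**
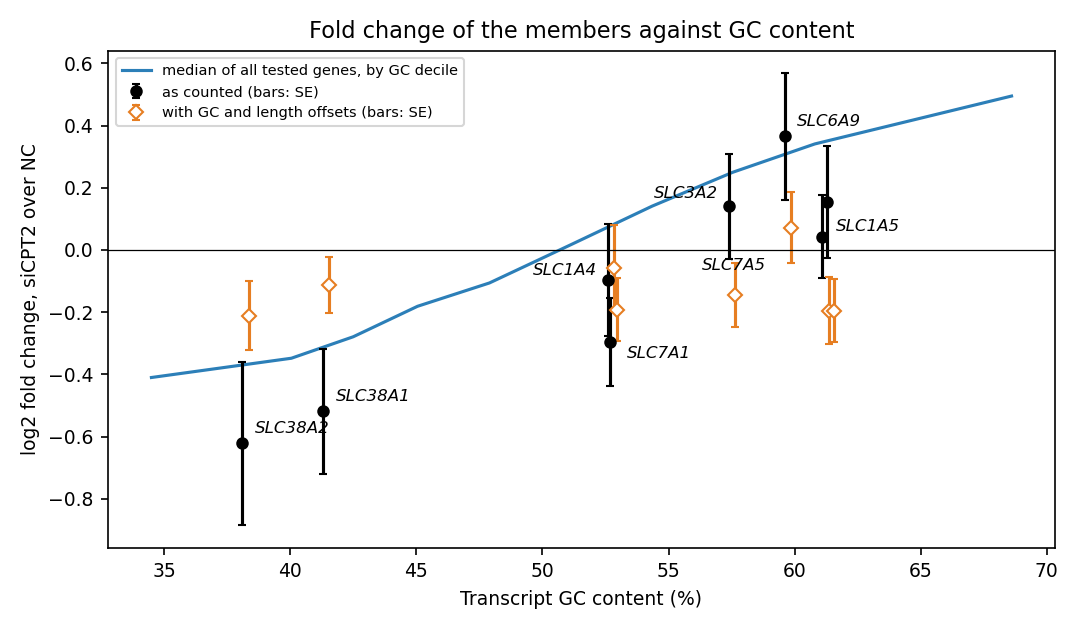
Log2 fold change (siCPT2 over NC) of the 8 members against transcript GC content, as counted (black) and with GC and length offsets (orange, drawn slightly to the right), with bars of 1 SE and a line through the median of all tested genes in each GC decile. As counted the members spread from -0.62 to 0.37, with SLC7A1 (-0.29) and SLC7A5 (0.04) well below the medians of their deciles (0.14 and 0.34), and with offsets they spread from -0.21 to 0.07.

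The 3 members with separated CPM held the most copies of ATTTA in their 3′ ends, a feature looked at after their values were seen. In the longest coding transcript, the 3′ untranslated region held 22 copies of ATTTA in SLC38A1 (5907 bases, 39.5% GC), 11 in SLC38A2 (2922 bases, 33.8% GC) and 9 in SLC7A1 (5070 bases, 50.7% GC). In the other 5 members the number was 0 to 2, where the median of 13181 tested genes with a coding transcript was 2 copies over 1249 bases. In FPKM, SLC7A5 and SLC1A4 were separated with siCPT2 lower as well, and they held 2 and 1 copies. ATTTA is the core of AU-rich elements, sites at which proteins bind to control the decay of an mRNA. The copies were not scaled to the length or base content of these regions, and a link to the fold changes was not tested. The encoded proteins are alike in size, from 487 residues (SLC38A1) to 633 residues (SLC6A9).

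The genes whose pattern over the 6 libraries was most like that of each member are given as a description. The measure was the root mean square difference of centred log2 CPM, over 9539 genes with a mean of at least 10 CPM. SLC3A2 and SLC1A5 were the closest pair of members (0.0350), and SHMT2, the mitochondrial serine hydroxymethyltransferase, was near both (0.0271 and 0.0283). SLC7A1 was closest to CPT1A (0.0237), which encodes the outer membrane carnitine palmitoyltransferase and had a log2 fold change of -0.28 (SE 0.14, edgeR adjusted p = 0.34). For SLC38A1 the closest gene was ZFP91 (0.0217), for SLC38A2 it was AZIN1 (0.0383), an inhibitor of the decay of ornithine decarboxylase, and for SLC6A9 it was SLC29A2 (0.0282), a nucleoside transporter. SLC7A5 was closest to SLC45A4 (0.0196), SLC1A5 to CYB561A3 (0.0233) and SLC1A4 to ZNF496 (0.0234).

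Of 37 other amino acid transporter genes, 26 were tested and none passed by edgeR, DESeq2 or limma-voom, and the same held for the lists that follow. Their median log2 fold change was -0.02, with 12 above 0 and 14 below, and at an unadjusted p under 0.05 there were 2 higher and 4 lower. Of all genes, 9.18% were higher and 5.29% lower at that threshold. SLC38A5, a further glutamine carrier and the third most abundant transporter (92.4 FPKM in NC), had 204.4 ± 14.8 CPM in NC and 277.3 ± 38.6 in siCPT2 (SD, n = 3 each; log2 fold change 0.44, SE 0.15, adjusted p = 0.338), with separated groups. SLC6A6, the taurine transporter, had 361.5 ± 28.2 and 268.6 ± 35.5 CPM (log2 fold change -0.43, SE 0.14, adjusted p = 0.338), also with separated groups. SLC6A15, a carrier of branched-chain amino acids, had 14.9 ± 3.72 and 8.48 ± 3.00 CPM (log2 fold change -0.81, SE 0.30, adjusted p = 0.338). The GC contents of SLC38A5, SLC6A6 and SLC6A15 are 57%, 51% and 38%. The medians of their GC deciles over all genes were 0.25, 0.014 and -0.41. Groups were separated in 3 genes of the list with siCPT2 higher and 6 with siCPT2 lower, against 12.2% of all genes on each side.

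Regulators of the amino acid response did not pass either. Of 16 tested genes, 1 was higher and 3 were lower at an unadjusted p under 0.05, with a median log2 fold change of -0.14. Of all genes, 9.18% were higher and 5.29% lower at that threshold. Groups were separated in 3 of the 16 with siCPT2 higher and 5 with siCPT2 lower, against 12.2% of all genes on each side. ATF4 had 195.3 ± 4.08 CPM in NC and 233.3 ± 23.4 in siCPT2 (log2 fold change 0.26, SE 0.13, edgeR adjusted p = 0.344). ATF5, a related factor, had 0.50 (SE 0.18), ATF3 -0.54 (SE 0.20), and DDIT3, which encodes the stress factor CHOP, -0.80 (SE 0.24), each with an adjusted p of 0.338. The GC contents of ATF4, ATF5, ATF3 and DDIT3 are 56.7%, 60%, 50.8% and 49.7%. In their GC deciles the medians over all genes were 0.25, 0.34, 0.014 and 0.014. Of 30 tested genes for amino acid sensing by mTORC1, 2 were higher and 1 lower at an unadjusted p under 0.05, with a median of -0.03. The shares of all genes were again 9.18% and 5.29%. Groups were separated in 2 genes of this list with siCPT2 higher and 4 with siCPT2 lower. The log2 fold change there was -0.44 (SE 0.14) for MTOR, the kinase itself, 0.46 (SE 0.20) for its partner MLST8 and 0.42 (SE 0.18) for the lysosomal anchor LAMTOR1, each with an adjusted p of 0.338. MTOR, MLST8 and LAMTOR1 have GC contents of 52.2%, 64.1% and 55.7%, and the medians of their GC deciles were 0.014, 0.50 and 0.14.

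Lists for other cell types and for RNA quality are given by their range in each group. Summed CPM ran from 1572.1 to 1830.6 in NC and from 1736.4 to 2695.0 in siCPT2 for the 8 epithelial markers, and from 61.4 to 80.5 and 79.6 to 131.6 for the 6 fibroblast markers, which were mostly COL1A1. For the 6 leukocyte markers, mostly CD68, they were 21.5 to 23.0 and 30.0 to 32.0, without overlap. For the 4 endothelial markers, mostly CDH5, they were 72.8 to 89.3 and 53.6 to 70.3, also without overlap. The log2 fold change was 0.48 for CD68 (SE 0.16, edgeR adjusted p = 0.338) and -0.33 for CDH5 (SE 0.17, edgeR adjusted p = 0.342). Of all single genes, 12.2% had separated groups on each side. LUM and LYZ had no count, and PTPRC, CD3E, COL3A1 and KDR had means under 0.1 CPM. All 8 tested nuclear-retained or intron-retaining transcripts, a sign of RNA quality, had fold changes below 0 (median -0.44). Their GC content was 36.8% to 47.5%, and the GC deciles of that range had medians of -0.41 to -0.11 over all genes. RNA quality and the GC trend are thus not told apart by this list. Its summed CPM was 1262.0 to 1592.4 in NC and 819.8, 1304.8 and 1081.5 in siCPT2 1, 2 and 3. Mitochondrially encoded transcripts made up 10.4% ± 0.401 of counts in NC and 17.0%, 15.6% and 8.99% in siCPT2 1, 2 and 3. The part of these in the transporter values was not tested.

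**Figure D4:**
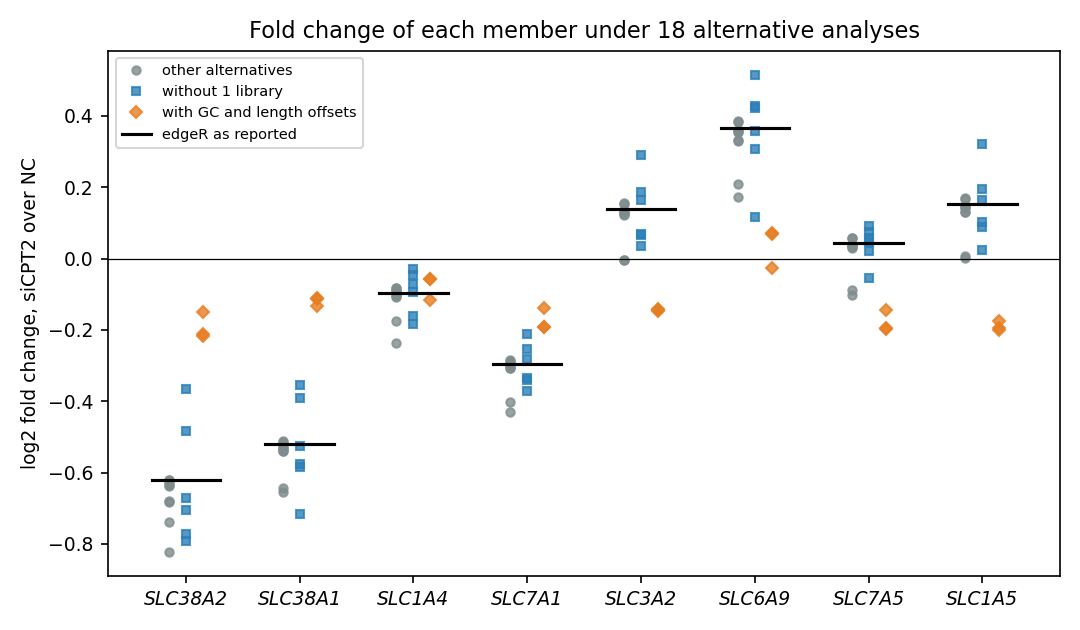
Log2 fold change (siCPT2 over NC) of each member in the reported edgeR analysis (black line) and in 18 alternative analyses: other tests, scalings, filters and the replicate block (grey), 1 library left out (blue) and GC and length offsets (orange). SLC38A2, SLC38A1, SLC1A4 and SLC7A1 stay below 0 in all 18, and SLC3A2, SLC6A9, SLC7A5 and SLC1A5 lie on both sides of 0.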

How the data were processed

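Poly(A) RNA was fragmented and copied with random hexamers, per the labels' protocols. The deposited table holds, from the authors, whole-number counts of reads for each gene and FPKM computed from gene models and library sizes not given in the sources used here. The submitters' processing notes name GRCh38, HISAT2, TopHat2, Bowtie2, StringTie, DESeq2 and edgeR, without versions. The p-value and log2 fold change of the authors' comparison stand in the same deposited table, per the file headers.

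The table held 24154 genes after 17 stray lines were left out. Of these, 19974 matched GENCODE 29 (GRCh38), the source of coordinates, transcript length and GC content (longest coding transcript). The other 4180 were new loci, with 5.32% to 7.18% of counts, and stayed in the tests. The test on counts was that of edgeR 4.0.16 under R 4.3.3 (filterByExpr, 15302 genes, TMM, robust quasi-likelihood F-test), with Benjamini-Hochberg adjustment over all genes and a threshold of 0.05. CPM are TMM-scaled. SE is the log2 fold change divided by the root of F. Alternatives were DESeq2 1.42.0, limma 3.58.1 (voom, or trend on log2(FPKM + 1)), other scalings and filters, the replicate block, GC and length offsets (loess per library), and leaving out each library. The tests were checked on simulated data. Intervals rest on 3 libraries a group.

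The members and lists were chosen with earlier results of these data known. Named genes are the members, CPT2, the 3 smallest p-values of each list and the 3 genes most like each member, of which the text gives the closest. ATF4, CCDC24 and the markers and list genes cited for their level were added after their values were seen. Of the lists, SAMTOR, MALAT1 and NEAT1 matched no symbol.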

Additional observations from a re-analysis of the deposited data

How the results depend on the processing

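No member was called under any of 18 alternatives except SLC38A1 with the replicate block. Members called numbered 1 with that block (SLC38A1, log2 fold change -0.54, adjusted p = 0.0493) and 0 otherwise. The replicate numbers were not taken as pairs: the libraries' deviations correlated at 0.25, 0.363 and 0.007 within numbers 1, 2 and 3, and 5 of 6 libraries correlated best with their own number, a hint from the data and not from the design. Genes called over the whole table numbered 2, and 20 by DESeq2, 1 by limma-voom, 1 with the filter at a mean of 5 CPM, 633 (4.14%; 2.08% lower) with the replicate block, 445 with the block and the GC and length offsets, 0 by limma-trend on FPKM (2055 at an unadjusted p under 0.05) and 4 with the offsets and without siCPT2 replicate 1. Leaving out 1 library at a time gave 1 to 5 genes, 0 members and a median log2 fold change of the members of -0.108 to 0.023. At an unadjusted p under 0.05 there were 5 members without siCPT2 replicate 2, where 35.9% of all genes were under it, 0 without NC replicate 2 (3.23% of all genes), and 1 or 2 without each of the other libraries (7.83% to 10.1%).

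SLC7A1, SLC38A1, SLC38A2 and SLC1A4 were below 0 in all 18 alternatives, as was CPT2. SLC7A5 reversed on library size alone (-0.102), in FPKM (-0.089), without siCPT2 replicate 1 (-0.054, the lowest of -0.054 to 0.091 over the libraries left out), with the offsets (-0.195), with offsets and replicate block (-0.197) and with offsets and without siCPT2 replicate 1 (-0.145). SLC3A2 reversed in the same settings other than the single left-out library, at -0.004, -0.003, -0.144, -0.148 and -0.142. SLC1A5 reversed with the offsets (-0.195), with the offsets and replicate block (-0.199), and with the offsets and without siCPT2 replicate 1 (-0.174). SLC6A9 reversed only in that last setting (-0.027). The cause was not tested. SLC1A4 was the member with the fewest counts (347 to 468 per library), and its SE of 0.18 was within the 0.13 to 0.26 of the members.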
